A study of Mus musculus with 20 samples.

Results

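The superior olivary complex (SOC), a group of auditory nuclei in the ventral hindbrain, was compared between embryonic day 16 (E16) and postnatal day 16 (P16), the full span covered by the study. The comparison used 7 SOC libraries of the 20 in the series, 4 at E16 and 3 at P16, chosen by their age and organ alone. The 4 SOC libraries of the day of birth (P0) were used to divide the change into what was done by P0 and what came later. All SOC samples came from untreated wild-type C57Bl6/J mice, of both sexes at the postnatal ages, and each library held tissue of several pooled animals, so the spread between libraries is a spread between pools. The size of the pools differed between ages. At P0 and P16 the brain was removed from the skull before it was frozen, whereas at E16 the whole head was frozen; the SOC region was then cut out on a cryostat. The manner of dissection therefore changed together with age between E16 and the postnatal ages, and cannot be told apart from it.

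Between E16 and P16 the neurons of the SOC finish wiring, become synaptically mature and begin to respond to sound, since hearing in the mouse starts between these ages. Their fast and precise firing rests on glycine and glutamate synapses, on potassium channels of the Kv1 and Kv3 families and on myelinated axons, whose sheaths are made by oligodendrocytes. Genes of dividing progenitors, of migrating and axon-growing neurons and of region-specifying transcription factors are switched off as neurons mature. RNA of a whole piece of tissue follows both the number of cells of each type and the RNA in each cell, so fewer cells of a type and less RNA per cell cannot be told apart in any value given here.

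The libraries held 20843679 to 28048053 counts. Levels are given as CPM, counts scaled by library size, with TMM factors. Calls required an adjusted p under 0.01 (Benjamini-Hochberg, edgeR's quasi-likelihood test), a fold change over 2.5 and no overlap between the libraries of the compared ages. The deposited table appeared to join 3 separately filtered SOC tables, which hold E16 and P0 replicates 1 to 3, then E16 and P0 replicate 4 with P16 replicates 1 and 2, and lastly P16 replicate 3. A gene left out of such a table is listed at 0, which allows up to 20 counts (0.713 to 0.96 CPM), whereas any other 0 allows up to 3 counts (0.107 to 0.144 CPM). Unlike the levels, these limits are in CPM without TMM factors. Replicates from different joined tables differed more (chi-square per degree of freedom 67.8 to 109) than those from the same table (7.35 to 48.9). Deviations from the mean of the age followed the GC content of transcripts. Their rank correlation with it was -0.769 to -0.51 in E16 and P0 replicate 4 and P16 replicates 1 and 2. In the other libraries it was 0.153 to 0.732. As these tables are spread unevenly over the ages, this deviation goes in part with age. Of the tissue checks, the forebrain list summed to 23.7 to 31.2 CPM at E16 and 7.87 to 13.7 CPM at P16, and reached 251 CPM in P0 replicate 4. The choroid plexus list summed to 137 to 551 CPM at E16, 222 to 687 CPM at P0 and 29.9 to 98.9 CPM at P16. For the cerebellum list the sums were 225 to 312 CPM at E16, 385 to 501 CPM at P0 and 205, 171 and 378 CPM in the P16 libraries. These sums hide changes both ways, as 5 of its 12 genes (41.7%) were called higher at P16 and 5 lower. Its rises included Gabra6 (log2 fold change 7.24), also a member of the glycine and GABA receptor list, and Pcp2 (5.45). How far cerebellar tissue at P16 added to the rises given below was not tested.

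Over the full span more genes were called lower than higher in the SOC. Of 16832 genes tested, 2050 were higher at P16 (12.2% of those tested) and 2459 were lower (14.6%). A 0 through a joined table stood in the lower age for 154 of the rises and 628 of the falls. Among genes with counts in every joined table, 1826 of the rises and 1831 of the falls were called again. Falls thus hardly outnumbered rises among these, a set that leaves out genes absent at P16. The genes that rose took 7.05% to 8.58% of all SOC counts in the E16 libraries and 32.4% to 35.4% in the P16 libraries, and those that fell went from 17.3% to 21.5% down to 3.11% to 3.99%. Over all genes tested the log2 fold change had a median of -0.15, and of -0.26 with upper-quartile factors, so changes are relative to such a shift. Rises of at least 16-fold, a log2 fold change of 4, were seen in 317 genes and falls of that size in 539. In 93 of the rises and 255 of the falls every library of the lower age was at or under the floor. Tested against a fold change of 2.5 itself with glmTreat, 1057 genes were higher and 1316 lower. Within the joined table that holds both ages (E16 replicate 4, P16 replicates 1 and 2), 87.6% of the rises and 81.4% of the falls exceeded 2.5-fold; their direction there is fixed by the rule of no overlap.

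Gene lists were drawn up for the cell types and processes that the tissue can hold, and each was read against these shares of all genes. Of the 26 genes of myelin and oligodendrocytes all were higher at P16, as were all 10 genes for the handling of inhibitory transmitters, 18 of 22 astrocyte genes, 12 of 16 genes of the axon node and paranode and 25 of 46 potassium channel genes. At the other end 42 of 45 skeletal muscle genes, 27 of 28 mitosis genes, 24 of 29 DNA replication genes, 17 of 21 cartilage genes, 19 of 27 immature neuron genes and 27 of 44 hindbrain transcription factors were lower.

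**Figure D1:**
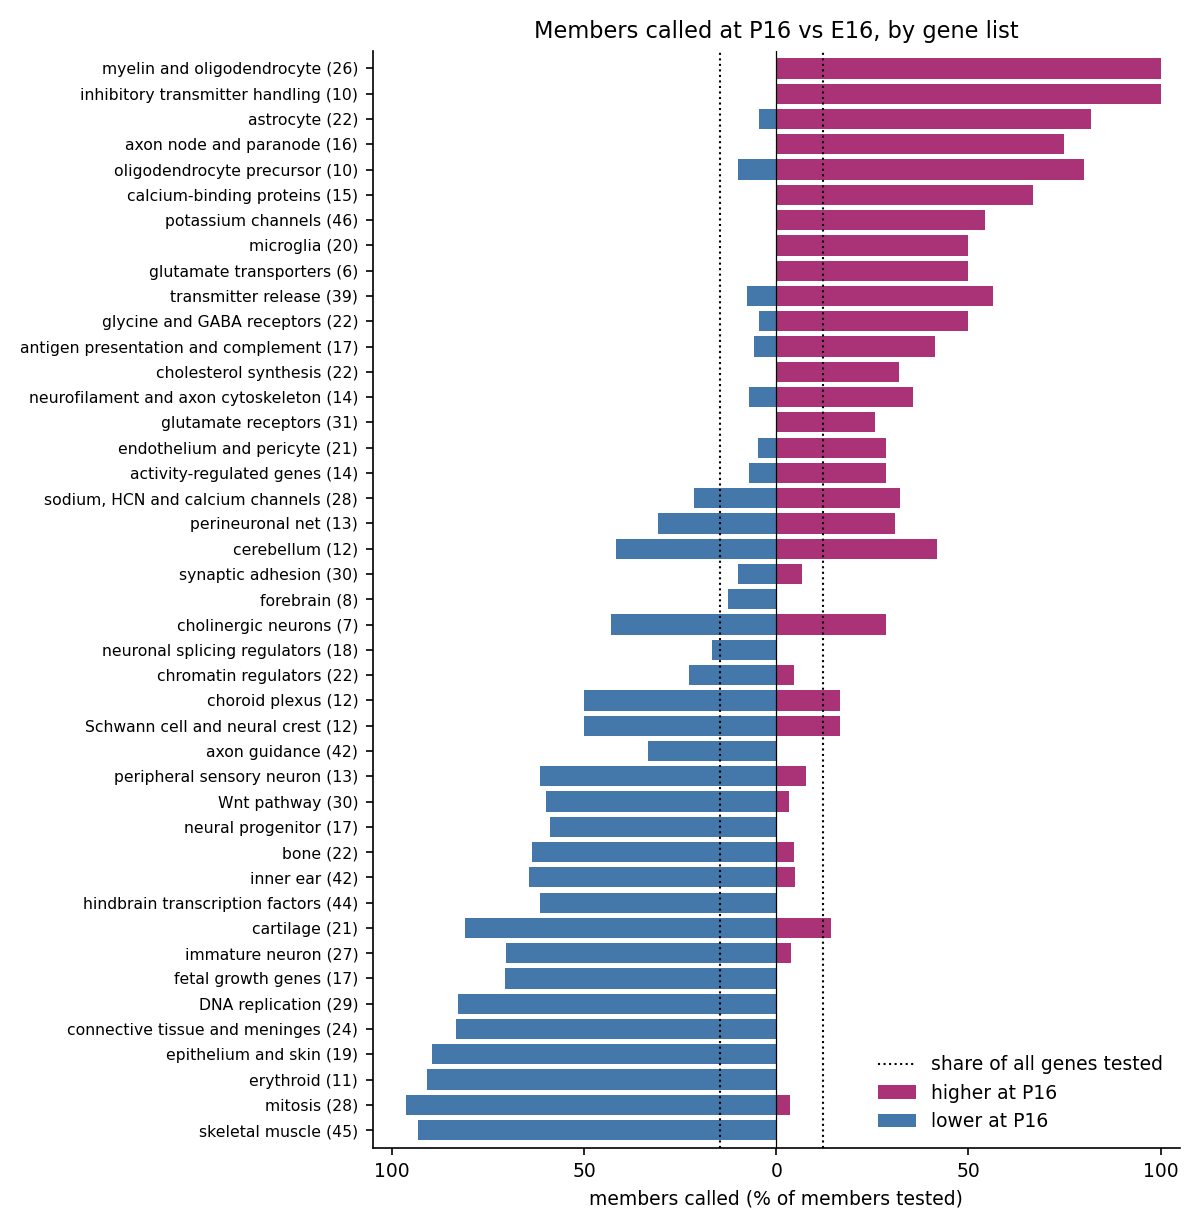
Members of each gene list called at P16 vs E16, as a percent of the members tested (number in parentheses), drawn to the right for genes higher at P16 and to the left for genes lower at P16. Dotted lines mark the shares over all genes tested, 12.2% higher and 14.6% lower; myelin stands at one end and skeletal muscle and mitosis at the other.

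The second question was which part of the change was already done at birth. A gene called at P16 vs E16 was counted as done by P0 when it was also called in that direction at P0 vs E16 and not at P16 vs P0, and as later in the opposite case. At P0 vs E16, 3.29% of all genes were called higher and 6.68% lower, and at P16 vs P0 the shares were 7.87% and 8.76%. Among the 2050 rises 266 (13%) were done by P0, 928 (45.3%) were later, 153 (7.46%) were called in both steps and 703 (34.3%) in neither. Among the 2459 falls the numbers were 634 (25.8%), 872 (35.5%), 282 (11.5%) and 671 (27.3%). Genes called in neither step changed by a median log2 of 0.80 and then 0.98 when they rose, and of -0.80 and then -1.09 when they fell, so that their net change was spread over both steps.

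A call in a single step does not show that the steps differ, so the difference between them was tested directly on the log2 scale. The later step, from birth to P16, covers more days than the earlier one, so the sizes compared here are not rates. Of the rises 551 were larger after P0 and 87 larger before it. Of the falls 539 were larger after P0 and 292 larger before it. Over all 16832 genes the later step was higher in 1695 (10.1%) and lower in 1606 (9.54%). These counts depended on the fit, with 1185 higher and 1050 lower without P0 replicate 2, 2768 and 2919 with the replicate block, 2697 and 2597 with the joined table as a term and 2513 and 2630 with GC-adjusted offsets. With the block, 810 rises were larger after P0 and 178 before it, and 743 falls after and 369 before. Across the alternatives that hold all 3 ages, 371 to 819 rises and 295 to 752 falls were larger after P0, against 34 to 178 and 199 to 396 before it. Falls done by P0 were the largest early changes, with a median log2 fold change of -2.59 by P0 and -0.41 after it, and a median P0 level of 16.6% of that at E16. Rises done by P0 had a median log2 fold change of 1.73 and then 0.52.

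**Figure D2:**
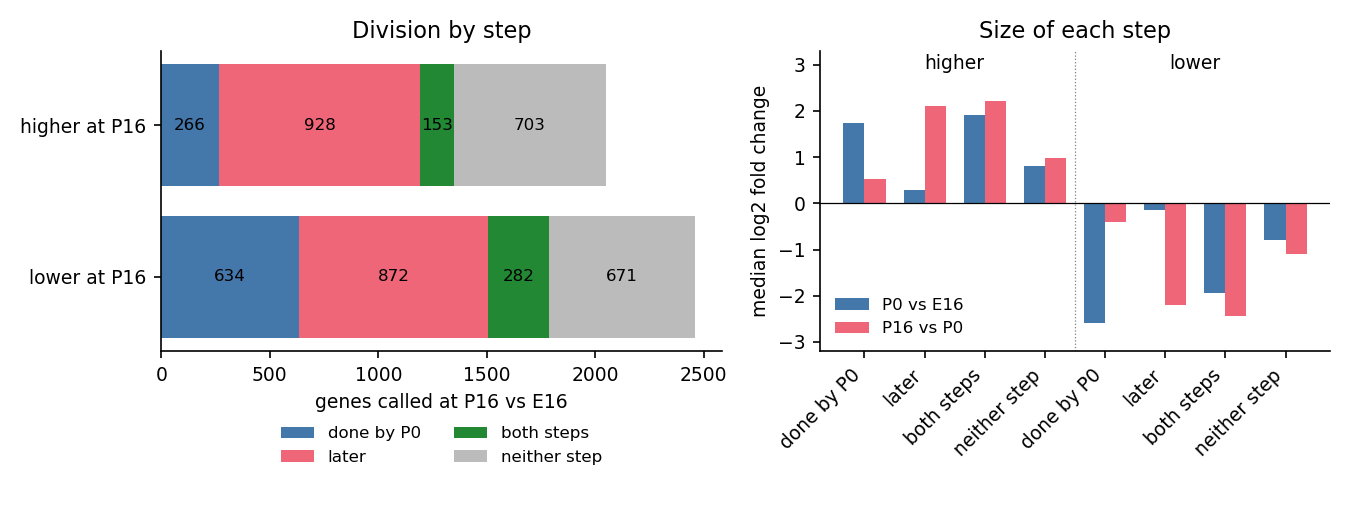
Left, number of genes higher or lower at P16 vs E16 by the step in which they were called. Right, median log2 fold change of the same classes for P0 vs E16 and P16 vs P0; the later class has medians of 0.28 and -0.14 by P0 and of 2.11 and -2.21 afterwards.

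Largest among the rises done by P0, of genes with a mean of at least 20 CPM at P16, were Agt, Cldn10, Cpne6 and Mt2. Agt, which encodes angiotensinogen and is made by astrocytes in the brain, lay at 2.18, 1.5, 1.51 and 1.08 CPM in the E16 libraries, at 102, 104, 169.5 and 49.3 CPM at P0 and at 177, 177 and 196 CPM at P16. Its P0 libraries were all far above those of E16 and below those of P16 (log2 fold change 6.87, SE 0.392, adjusted p 3.23e-08 over the full span), and its earlier step was the larger (difference between the steps -5.29, adjusted p 1.64e-05). Cldn10, a tight-junction claudin, went from a mean of 1.3 ± 0.182 CPM (SD, n = 4) to 16.3 ± 2.34 (n = 4) and 38.9 ± 4.77 CPM (n = 3). Cpne6, a calcium-dependent membrane-binding copine, went from 1.65 ± 0.198 to 18.4 ± 5.33 and 40.4 ± 6.4 CPM. Mt2, a metallothionein, went from 1.56 ± 0.877 to 18.6 ± 9.6 and 34.1 ± 5.96 CPM, and 73.5% of its exons by length overlaps a gene on the opposite strand, from which it may not be told apart.

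Among the largest rises called in both steps were Mbp and Fa2h, and the largest called in the later step alone were Cyp2j12, Mog, Mobp and Klk6. Most of these are genes of the oligodendrocyte and its myelin. Mbp, myelin basic protein, went from 40.1 ± 11.7 CPM to 151 ± 52 and 14126 ± 841 CPM, and Fa2h, which makes the hydroxylated fatty acids of myelin lipids, from 0.189 ± 0.0976 to 1.37 ± 0.758 and 78.9 ± 17.2 CPM. Mobp, another myelin protein, was called in the later step only, with 0.134, 0.214, 0.0796 and 17.2 CPM at E16, 18.1, 18.6, 32.3 and 12.8 CPM at P0 and 8054, 7265 and 5445 CPM at P16. Its level in E16 replicate 4 was close to those at P0, and leaving it out gave a log2 fold change of 15.53 in place of 10.61. Mog, a protein of the outer sheath, was listed at 0 in E16 replicates 1 to 3 through a joined table, at 1.12 CPM in replicate 4 and at 755, 716 and 652 CPM at P16. Without E16 replicate 4 the fitted log2 fold change of Mbp was 8.68.

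The whole myelin list summed to 385 to 557 CPM at E16, 762 to 1159 CPM at P0 and 55966 to 71011 CPM at P16. Its median log2 fold change was 6.74, and 6.33 when genes at the floor take their bound, against -0.15 over all genes. Of its 26 rises 17 were later, 8 were called in both steps, 1 in neither and 0 by P0 alone. Klk6, a serine protease of oligodendrocytes, was listed at 0 through a joined table in 3 of the 4 E16 libraries and at 0.166 CPM in replicate 4, and was at 56.7 ± 10.5 CPM at P16. Cyp2j12, a cytochrome P450, was listed at 0 in all E16 libraries and at 26.2, 25.6 and 19.8 CPM at P16, at least 35.8-fold higher. Of the 10 oligodendrocyte precursor genes 8 were higher and 1 lower, Cspg4 (the NG2 proteoglycan, which pericytes also carry), from 146 ± 41.6 to 46.3 ± 16.7 CPM. That fall was not called without P16 replicate 1 (log2 fold change -1.48) or replicate 2 (-1.47), or with the joined table as a term (-1.09). Promoters of 17 of the 26 myelin genes were in the RefSeq table (GRCm38.p6, 250 bases before to 50 after the start). Of these genes 7 (41.2%) held ACAAAG, a core motif of SOX factors, on either strand of any of their promoter entries. Of all 11811 genes with a promoter the share was 16.6%.

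Astrocyte genes rose in part earlier. Of the 22 astrocyte genes 18 were higher, 6 of them done by P0, 5 later, 6 in both steps and 1 in neither, with a median log2 fold change of 2.97. Gfap, the intermediate filament of astrocytes, went from 1.11, 0.855, 1.23 and 0.953 CPM to 117, 83.2, 127 and 63.9 and then 442, 363 and 685 CPM, with no overlap between any 2 ages. Slc1a2, the main glutamate transporter of astrocytes, was at 114 ± 27.3, 271 ± 71 and 3597 ± 605 CPM and was called in the later step alone. The single astrocyte gene that fell was Sox9, from 57 ± 9.57 to 9.95 ± 0.923 by P0 and 12.3 ± 1.5 CPM at P16; cartilage and neural progenitors also express it. Of 20 microglia genes 10 were higher and 0 lower, with 1 rise done by P0, 3 later, 3 in both steps and 3 in neither. Of 22 genes of cholesterol synthesis, which supplies myelin with its main lipid, 7 were higher and 0 lower. Of these rises 0 were done by P0, 5 were later and 2 in neither step. Sc5d, a late enzyme of that pathway, went from 58.6 ± 16 to 63.4 ± 13.4 at P0 and 232 ± 45.3 CPM at P16.

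**Figure D3:**
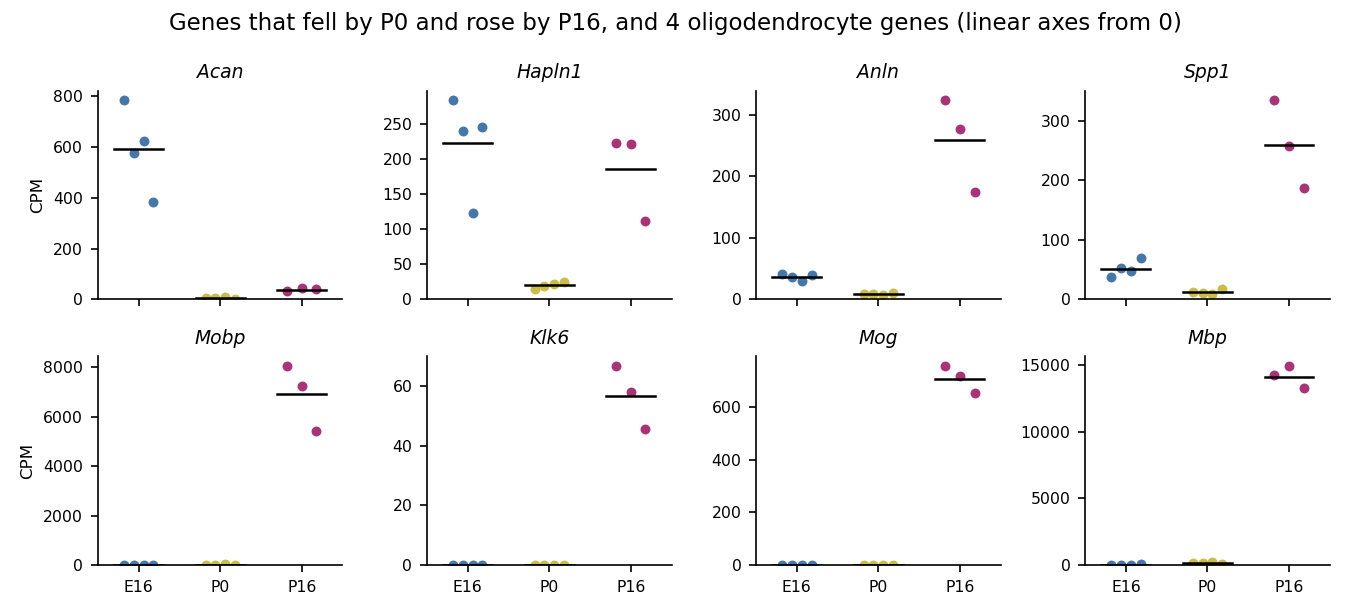
CPM per library at E16, P0 and P16 on linear axes from 0, with a line at each mean. In the upper row Acan, Hapln1, Anln and Spp1 were lower at P0 than at either other age; in the lower row Mobp, Klk6, Mog and Mbp lie near 0 at E16 and P0 on the scale of their P16 values.

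The genes for handling inhibitory transmitters rose together. All 10 were higher at P16, 6 of them done by P0, 1 later, 1 in both steps and 2 in neither. Their list summed to 624 to 746 CPM at E16, 1226 to 2214 CPM at P0 and 3674 to 4028 CPM at P16, so its summed level rose further after P0. The list shares a member with the astrocyte list, and the RNA was not of neurons alone. Slc6a5, the glycine transporter that marks glycinergic neurons, lay at 6.72, 21.8, 13.9 and 18.4 CPM at E16, at 71.2, 89.2, 109 and 51.8 CPM at P0 and at 654, 686 and 469.8 CPM at P16. It rose in both steps (log2 fold change 5.31, SE 0.381, adjusted p 1.96e-07). Gad2 and Gad1, which make GABA, went from 28.7 ± 5.43 to 229.7 ± 43 CPM and from 76.1 ± 5.64 to 202 ± 33.1 CPM. The rise of Gad1 was not called with upper-quartile factors (log2 fold change 1.29) or with GC-adjusted offsets (1.31). Slc32a1, the vesicular transporter of glycine and GABA, went from 15.7 ± 6.42 to 44.1 ± 18.9 and 74.6 ± 21.8 CPM, with 24.9% of its exons by length under an opposite gene. Of the chloride transporters that set the sign of glycine and GABA responses, Slc12a5 (KCC2, which exports chloride) was at 107, 134, 145 and 65.2 CPM at E16, 344, 395, 437 and 182 CPM at P0 and 295, 336 and 454 CPM at P16, done by P0. Slc12a2 (NKCC1, which imports chloride) was at 127 ± 31, 96.8 ± 19.6 and 878 ± 179 CPM and was called in the later step alone. Both transporters were higher at P16 than at E16, by different routes. Slc12a2 is not particular to neurons, and glia that rose over the same step express it too.

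Among the 22 receptor genes for glycine and GABA 11 rose and 1 fell. The fall was Glra2, the fetal alpha subunit of the glycine receptor, which lay at 94.8, 95.1, 82 and 135 CPM at E16, at 179, 162, 156 and 231 CPM at P0 and at 35, 42.1 and 29.3 CPM at P16 (a log2 fold change of -1.52, SE 0.209, adjusted p 4.52e-05). Glra1, the adult alpha subunit, lay at 0.668, 2.27, 2.07 and 1.16 CPM, then at 6.25, 8.79, 12.2 and 3.51 CPM and finally at 78.2, 91.4 and 98.2 CPM (log2 fold change 5.85, SE 0.438, adjusted p 2.76e-07). Per kilobase of exon the level of Glra2 was 32.3 CPM at E16 against 0.638 for Glra1, and 11.3 against 37 at P16, so the order of the pair turned over. The alpha subunits of early receptors were not called over the full span, with Gabra2 at 11.5 ± 2.37 and 22.4 ± 3.67 CPM, Gabra3 at 39.3 ± 12.8 and 63.6 ± 13.9 CPM and Gabra5 at 31.1 ± 5.19 and 51.6 ± 9.81 CPM at E16 and P16. Gabra5 stood highest at P0, at 113 ± 11 CPM.

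Glutamate receptors changed in fewer members, with 8 of 31 higher and 0 lower and a median log2 fold change of 0.51. Of the NMDA receptor subunits, Grin2a rose from 17.6 ± 4.06 to 41.8 ± 9.1 and 124 ± 15.2 CPM and Grin2c from 1.39 ± 0.301 to 4.23 ± 0.924 and 46.3 ± 19.4 CPM. Grin2b, the early subunit, was not called at 91.6 ± 45.1 CPM at E16 and 128 ± 15.3 CPM at P16, nor was Grin2d at 9.2 ± 3.86 and 6.23 ± 2.52 CPM. Both stood higher at P0, at 179 ± 27.5 and 19.2 ± 8.8 CPM. Among AMPA receptor subunits Gria4 and Gria3, the former typical of fast auditory synapses, were called higher, from 137 ± 27.8 to 347 ± 44.9 CPM and from 46.6 ± 12.8 to 154 ± 36.7 CPM, each in neither step alone. Gria4 was near the fold minimum (log2 fold change 1.34) and was not called without E16 replicate 1 (1.27) or 3 (1.28), or without P16 replicate 2 (1.31). It also lost its call with GC-adjusted offsets (1.16), the joined table as a term (1.23) or upper-quartile factors (1.23). The same held among genes with counts in every joined table (1.30). Gria1 at 55.2 ± 7.53 and 91.5 ± 15.3 CPM and Gria2 at 226 ± 79.1 and 317 ± 62.5 CPM were not called. Of the vesicular glutamate transporters Slc17a7 (VGLUT1) lay at 0.935, 1.45, 1.23 and 0.87 CPM at E16, 7.93, 12, 13.1 and 13.3 CPM at P0 and 73.5, 69.2 and 63.7 CPM at P16. Slc17a6 (VGLUT2) stayed the more abundant, per kilobase 75.2 against 12.8 CPM at P16, and was not called, as its fold change fell short of the minimum (log2 fold change 1.19, adjusted p 0.000258, and called at 1.39 without E16 replicate 4 or P16 replicate 3). Slc17a8 (VGLUT3) was not called either, with 13.7 ± 3.54 CPM at E16 and 6.84 ± 2.22 CPM at P16.

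The machinery of transmitter release rose in 22 of 39 members, 7 of them done by P0, 3 later, 4 in both steps and 8 in neither, and fell in 3. Syt2, the calcium sensor of fast hindbrain synapses, lay at 18.8, 26.9, 27.8 and 21.6 CPM at E16, at 110.1, 127, 170.1 and 70.5 CPM at P0 and at 572, 638 and 697 CPM at P16. Syt1, its forebrain counterpart, went from 130.3 ± 20.5 to 316 ± 33.2 and 324 ± 68.7 CPM and was just short of the fold minimum (log2 fold change 1.31), which it passed without E16 replicate 2 (1.39) or 4 (1.34), P0 replicate 4 (1.34) or P16 replicate 3 (1.48). Per kilobase Syt1 stood above Syt2 at E16, 15.6 against 3.11 CPM, and below it at P16, 38.8 against 83.3 CPM. In the same way the vesicle protein Vamp1 rose from 13.4 ± 2.88 to 80.9 ± 26.4 and 649 ± 13.4 CPM, while Vamp2 rose from 17.6 ± 6.23 to 34.6 ± 6.79 and 60.4 ± 4.47 CPM. Per kilobase Vamp1 was at 1.32 CPM against 4.62 for Vamp2 at E16 and at 63.9 against 15.9 at P16. Snap25, their partner in the plasma membrane, rose in both steps from 161 ± 29.7 to 1923 ± 498 CPM. Stx1a, the neuronal syntaxin that was lower, stood at 48.9 ± 10.6, 76.5 ± 11.1 and 10.9 ± 4.84 CPM.

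**Figure D4:**
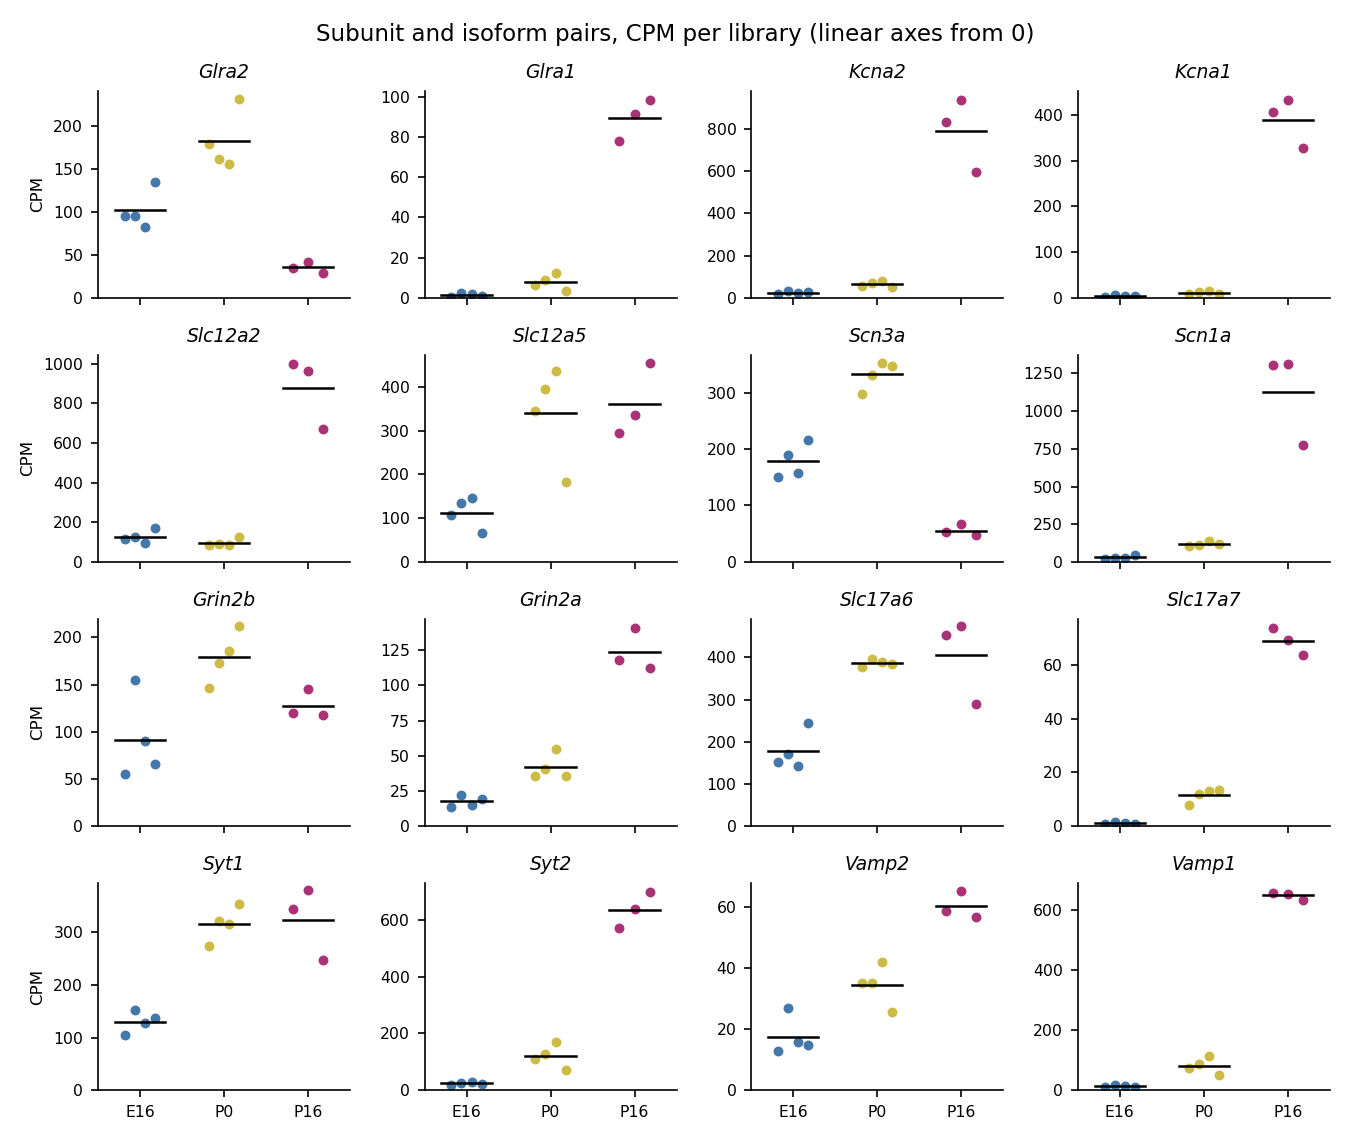
CPM per library of 16 genes at E16 (4 libraries), P0 (4) and P16 (3), on linear axes from 0, with a line at each mean. Glra2 and Scn3a were highest at P0 and lowest at P16, whereas Glra1, Scn1a, Slc17a7, Syt2 and Vamp1 had P16 libraries above all earlier ones.

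Potassium channels rose in 25 of 46 members and fell in 0, with a median log2 fold change of 1.47. Of these rises 5 were done by P0, 11 were later, 4 were in both steps and 5 in neither. Kcna1, a low-threshold Kv1 channel of auditory neurons, was at 2.85, 5.86, 4.26 and 4.14 CPM at E16, at 8.92, 13.2, 15.3 and 7.62 CPM at P0 and at 407, 432 and 328 CPM at P16. Its fold change was the largest of the 3 Kv1 and Kv3 genes given here (log2 fold change 6.50, SE 0.303, adjusted p 9.18e-09). Kcna2, its partner subunit, went from 25.1 ± 6.58 to 64.3 ± 11.6 and 789.7 ± 174 CPM. The high-threshold Kv3 channel Kcnc1, which lets neurons fire at high rates, was later, from 20.6 ± 9.4 to 97.3 ± 20.5 CPM.

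Sodium, HCN and calcium channels moved both ways, with 9 of 28 higher and 6 lower. Scn3a, the fetal sodium channel, lay at 151, 189, 158 and 216 CPM at E16, at 298, 331, 352 and 347 CPM at P0 and at 52.7, 66.4 and 48 CPM at P16 (a log2 fold change of -1.68, SE 0.167, adjusted p 2.83e-06). Scn1a, a main channel of mature fast-firing neurons, lay at 22, 28.1, 28.6 and 45.6 CPM, then at 105, 112, 139 and 119 CPM and finally at 1302, 1309.7 and 775 CPM, and Scn8a, the channel of mature nodes, rose from 30.4 ± 8.28 to 394 ± 43.2 CPM. Scn2a1 was highest at P0, at 489 ± 53.4 CPM, and was not called over the full span (184 ± 51.6 and 254 ± 44 CPM). Of the beta subunits, Scn4b, which supports resurgent current, rose from 1.15 ± 0.123 to 4.74 ± 1.76 and 329 ± 7.41 CPM, and Scn3b was at 181 ± 16.9, 236 ± 18.7 and 39.5 ± 2.39 CPM. All 6 falls of this list were later, and 4 of them stood at or above their E16 level at P0. Hcn2, a channel of the hyperpolarisation-activated current, rose in both steps, from 14.6 ± 5.92 to 157 ± 34.2 CPM.

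Of 15 calcium-binding proteins 10 were higher and 0 lower. Pvalb, which buffers calcium in fast-firing neurons, lay at 15.6, 14.8, 16.8 and 20.1 CPM at E16, at 10.1, 8.52, 8.02 and 4.49 CPM at P0 and at 289.6, 245 and 214 CPM at P16. Calb1 and Calb2 went from 16.3 ± 5.34 to 152 ± 36.4 CPM and from 30.4 ± 1.93 to 159 ± 24.1 CPM. Pvalb is also a protein of fast muscle. Among the neurofilament genes Nefh, the heavy chain, rose in both steps from 33.7 ± 7.81 to 136 ± 57.9 and 818 ± 88.5 CPM, Nefm rose from 115 ± 40.8 to 418 ± 59.7 CPM, and Nefl was not called, at 1121 ± 319 and 2565 ± 36 CPM (log2 fold change 1.19, and called at 1.41 without E16 replicate 4). Nefl and Nefm overlap on opposite strands (32.8% and 19.2% of their exons by length overlaps a gene on the opposite strand). Mapt, which encodes tau, was the single fall of the axon cytoskeleton list, at 837 ± 164, 1269.9 ± 133 and 258 ± 22.6 CPM. Of the remaining neuronal lists, synaptic adhesion with 2 of 30 higher and 3 lower and the neuronal splicing regulators with 0 of 18 higher and 3 lower stood near the shares of all genes.

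The last question was which falls belonged to neural genes and which to muscle, cartilage, bone or inner ear. The level at P0 was set against that at E16 for each fall, since at P0 the brain had been taken out of the skull; dissection and age still cannot be told apart. The lists for skeletal muscle, cartilage, bone and inner ear held 99 falls among 128 members tested. Of these, 71 (71.7%) were already under 10% of their E16 level at P0, with a median of 3.53%, and 70 were done by P0, 9 later, 18 in both steps and 2 in neither. Among genes with counts in every joined table, a set without those that were absent at P16, the falls were 17 of skeletal muscle, 10 of cartilage, 9 of bone and 10 of inner ear. The neural lists held 93 falls among 437 members tested. Of these, 1 was under 10% at P0 and 83 (89.2%) were at 40% or more, with a median of 79%, and 71 were later, 5 done by P0, 4 in both steps and 13 in neither. Among the 93, 4 were also on the inner ear list and so stand in both counts. Without them 80 of 89 neural falls (89.9%) were at 40% or more. Over all 2459 falls the median was 48.9%, with 247 (10%) under 10%. In summed mean CPM, the falls of the 4 tissue lists went from 17331 at E16 to 809.7 at P0 and 595 at P16, and those of the neural lists from 15677 to 15224 and then 2595. Of all falls 2112 were in no list and were not assigned to any tissue; among them 152 (7.2%) were under 10% at P0 and 1286 (60.9%) were at 40% or more.

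**Figure D5:**
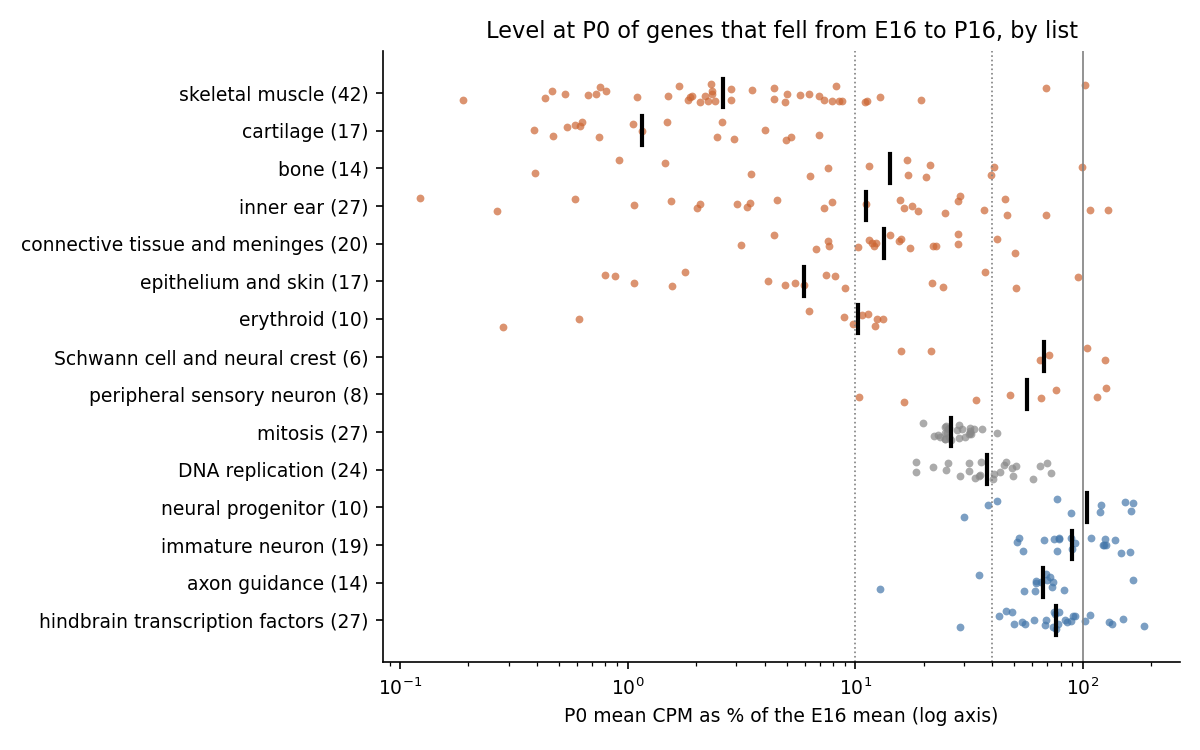
Level at P0 as a percent of that at E16 (log axis) for each gene that fell from E16 to P16, by list, with the number of falls in parentheses and a bar at the median; dotted lines mark 10% and 40% and the solid line 100%. Muscle (median 2.64%) and cartilage (1.16%) lie to the left, mitosis (26.5%) and DNA replication (37.9%) in the middle and immature neuron genes (90%) to the right.

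Skeletal muscle genes fell by birth. Of 45 tested, 42 were lower, 36 of them under 10% at P0, and their list summed to 1408 to 2940.3 CPM at E16, 69.1 to 94 CPM at P0 and 149.8 to 159.9 CPM at P16. Actc1 (ENSMUSG00000068614, chromosome 2, 114047282 to 114053548 in mm10), an actin of heart and fetal skeletal muscle, was at 146, 74.4, 74.7 and 72.1 CPM at E16, at 0.0906, 0.398, 0.169 and 0.0377 CPM at P0 and without a count at P16, which is at least 265-fold lower. Tnni2, the inhibitory troponin of fast muscle, went from 42.7, 17.3, 20.8 and 22.2 CPM to at most 0.641 CPM at P0 and 0 counts at P16, at least 74.5-fold lower. In both genes E16 replicate 1 was the highest library. Ttn, the giant sarcomere protein, was the most abundant member and varied most between E16 libraries, at 403, 215, 151 and 736 CPM, with 18.5 ± 5.38 CPM at P0 and 87.8 ± 9.85 CPM at P16. The 3 members that were not called were Xirp1 (called without E16 replicate 4, at -8.26), Ldb3 and Tnni1, the last of which fell at P0 vs E16 and rose at P16 vs P0 (31.9 ± 16.8, 0.361 ± 0.249 and 19.8 ± 2.17 CPM).

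Cartilage fell in 17 of 21 genes, all 17 of them under 10% at P0. The members that rose were Scrg1 (2.58 ± 1.07 to 29.7 ± 3.4 CPM), Ucma (0.818 ± 0.29 to 3.94 ± 1.82 CPM) and Prg4 (listed at 0, 0, 0 and 0.622 CPM at E16 and at 3.95, 2.19 and 3.02 CPM at P16), the last not called with DESeq2 or without any one replicate other than replicate 4 of E16 or P0. Col2a1 (ENSMUSG00000022483, chromosome 15, 97975602 to 98004695), the main collagen of cartilage, was at 6633, 5655, 6438 and 3074 CPM at E16, at 15.4, 21.6, 42.3 and 5.84 CPM at P0 and at 1.35, 1.8 and 8.81 CPM at P16. Its lowest E16 library was replicate 4. Matn3, a matrilin of the cartilage matrix, went from 43.7 ± 16 to 0.327 ± 0.118 CPM at P0 and was at or under the floor at P16, at least 126-fold lower. Of 22 bone genes 14 fell, 6 of them under 10% at P0. Ibsp, bone sialoprotein, went from 226 ± 71.8 to 0.891 ± 0.279 and 0.113 ± 0.101 CPM. Col1a2, a chain of the collagen of bone and of connective tissue at large, lay at 2038, 1989, 2053 and 1337 CPM at E16, at 213 ± 59.8 CPM at P0 and at 61.2, 53.9 and 172 CPM at P16, with P16 replicate 3 above the others. Spp1 (osteopontin), the single bone list member that rose, went from 51.9 ± 13.5 to 12.5 ± 3.54 and 260.1 ± 73.6 CPM; neurons and microglia also make it.

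Of 42 inner ear genes 27 fell, 13 of them under 10% at P0, and 2 rose, Gjb6, a connexin that is also on the astrocyte list (19.1 ± 2.67 to 137 ± 20.3 CPM), and Fbxo2, a ubiquitin ligase subunit (14.8 ± 1.11 to 90.5 ± 4.5 CPM). Oc90 (ENSMUSG00000015001, chromosome 15, 65876053 to 65912397), the main matrix protein of otoconia, was at 274, 283, 276 and 245 CPM at E16, at 0.181, 0.353, 0.591 and 0.189 CPM at P0 and listed at no more than 0.0482 CPM at P16, at least 780.5-fold lower. Otor, a secreted protein of the cochlea, was at 116 ± 16.6, 0.309 ± 0.202 and 0.097 ± 0.129 CPM. Both genes had E16 libraries close to each other. In the cochlea libraries of E16, 20 of the 27 falls (74.1%) were over 2.5-fold higher than in the SOC at E16, against 479 of all 2459 falls (19.5%); organ goes together with kit, laboratory and substrain (C57BL/6JOlaHsd) there, so levels of the organs are set side by side as a description. For skeletal muscle that number was 0 of 42. The inner ear falls that were later were Hmx2, Lmx1a, Coch, Pax8 and Otof, of which Lmx1a and Pax8 were also on the list of hindbrain transcription factors and Otof on that of transmitter release. The fall of Pax8 was not called without P16 replicate 1 (log2 fold change -1.70), and with the joined table as a term neither Pax8 (-1.37) nor Otof (-1.06) was called.

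Genes of other head tissues were lower at P16 too, but not all of them fell by P0. Of 24 connective tissue and meninges genes 20 were lower, of 19 epithelium and skin genes 17, and of 11 red blood cell genes 10, each of the latter done by P0. Col3a1, a fibrillar collagen of soft tissue, went from 2438 ± 469 to 289 ± 55.8 and 79 ± 58.1 CPM. Krt15, a keratin of basal epithelium, went from 40.3, 25.4, 23.7 and 7 CPM to 0.213 ± 0.173 CPM at P0 and was listed at no more than 0.0482 CPM at P16, at least 69.7-fold lower, with its lowest E16 library in replicate 4. Hbb-y, the embryonic beta-like globin, was at 33.8 ± 4.84, 0.207 ± 0.118 and 0.0323 ± 0.0279 CPM. Zcchc5, a gene derived from a retrotransposon that is on none of the lists, was at 43 ± 4.31 CPM at E16, 0.68 ± 0.181 CPM at P0 and 0 counts at P16, at least 124-fold lower. Of 12 Schwann cell and neural crest genes 6 fell and of 13 peripheral sensory neuron genes 8, with median P0 levels of 67.9% and 56.9% of E16. In each of these lists 4 falls were later and 0 were under 10% at P0. The level at P0 thus did not set these falls apart from those of the neural lists. How far these falls followed the tissue in the E16 sections was not tested.

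Neural genes fell later. Of 27 immature neuron genes 19 were lower, 18 of them in the later step and 1 in neither, with P0 levels of 51.4% to 162% of E16. Igfbpl1, expressed by newly formed neurons, lay at 35.3, 39.3, 45.6 and 34.7 CPM at E16, at 23, 21.6, 12.7 and 65.1 CPM at P0 and at 0.675, 0.729 and 2.28 CPM at P16 (a log2 fold change of -4.93, SE 0.615, adjusted p 2.02e-05). Its P0 libraries spread across the E16 range, with replicate 4 above all. Map1b, a microtubule protein of growing axons and the most abundant member, was not called at 1901 ± 689.7 and 2353 ± 372 CPM, and Rnd2, a small GTPase of neuronal migration, rose from 28.6 ± 4.72 to 157 ± 16.7 CPM (11.4% of its exons by length overlaps a gene on the opposite strand). The 17 neural progenitor genes had 10 falls, 7 of them later. Fabp7, the fatty acid binding protein of radial glia, was at 794, 644, 819 and 584 CPM at E16, at 1298, 1177, 994 and 1254 CPM at P0 and at 67.5, 78.4 and 95.2 CPM at P16, with the P0 libraries above all those of E16. Vim, the intermediate filament of radial glia and of mesenchymal cells, fell in both steps from 507 ± 90.3 to 194 ± 24.2 and 47 ± 11.9 CPM.

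Among 42 axon guidance genes 14 fell and 0 rose, 10 in the later step. Robo3, the receptor that lets axons cross the midline, lay at 10.1, 14.8, 16.8 and 7.71 CPM at E16, at 1.54, 2.21, 1.18 and 1.4 CPM at P0 and at 0.0964, 0.34 and 0 CPM at P16. Its P0 level, 12.8% of that at E16, was the lowest of the 14. Neo1, a netrin and RGM receptor and the most abundant member, was not called at 316 ± 20.2 and 236 ± 20.6 CPM. Of 44 hindbrain transcription factors 27 fell and 0 rose, 19 in the later step, with P0 levels of 28.9% to 185% of E16. Atoh1, which specifies the rhombic lip and also inner ear hair cells and cerebellar granule cells, went from 10.1, 10.1, 11.5 and 6.34 CPM through 3.17, 3.67, 2.32 and 1.85 CPM to 0 counts, at least 27.6-fold lower. It is on 3 of the lists, and its level in the cochlea at E16 was 8.46 CPM. Isl1, a LIM factor of motor and olivocochlear neurons, went from 37.7 ± 8.34 to 17.4 ± 4.15 and 2.17 ± 0.595 CPM. It is also on the list of cholinergic neurons, where 3 of 7 genes were lower and 2 higher. The 2 rises were Chat (log2 fold change 2.61) and Ache (2.47), so the fall of Isl1 does not stand for that list. Meis2, the most abundant of the list, was not called at 298 ± 73 and 140.2 ± 5.47 CPM.

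By the rule on fold change alone, the leading later falls were Igsf9, Crabp1, Mex3a and Igfbpl1. Igsf9, a cell adhesion protein of dendrites, went from 24.6 ± 5 to 11.7 ± 2.33 and 0.419 ± 0.366 CPM. Crabp1, which binds retinoic acid in the cytoplasm, went from 39 ± 8.01 to 18.8 ± 3.45 and 0.617 ± 0.298 CPM. Mex3a, an RNA-binding protein of progenitor cells, lay at 95, 137, 120.1 and 89.9 CPM, then at 45.1, 57.3, 49 and 70 CPM and at 2.55, 2.72 and 3.62 CPM at P16. None of these genes' libraries overlapped between any 2 ages, except those of Igfbpl1 at E16 and P0.

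Proliferation genes took a middle course. Of 28 mitosis genes 27 fell, 25 of them in both steps, and their P0 levels lay at a median of 26.5% of E16; of 29 DNA replication genes 24 fell, 7 in both steps, 5 by P0 and 9 later, with a median of 37.9%. Top2a, the topoisomerase of dividing cells, lay at 292, 252, 253 and 336 CPM at E16, at 61.7, 71, 42.5 and 109.8 CPM at P0 and at 8.05, 8.89 and 14.2 CPM at P16. Aurkb, a mitotic kinase, went from 20.6 ± 3.16 to 5.17 ± 1.07 and 0.436 ± 0.526 CPM, and Gins2, a subunit of the replicative helicase, from 10.5 ± 2.33 to 3.7 ± 0.534 and 0.339 ± 0.34 CPM (67.3% of its exons by length overlaps a gene on the opposite strand). The mitosis gene that did not fall was Anln, an actin-binding protein of the cleavage furrow that is also found in myelin, at 41.1, 36.8, 30.2 and 39.9 CPM at E16, 8.47, 9.54, 6.58 and 11.3 CPM at P0 and 324, 278 and 175 CPM at P16. At P0 Anln stood at 24.2% of its E16 level, near the median of the list, and its P16 libraries were above all others.

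Promoters of cell cycle genes carry known motifs, CCAAT boxes and the cell cycle homology region TTTGAA in genes of mitosis and E2F sites in genes of replication. Genes were counted when any of their promoter entries held the motif. RefSeq promoters (GRCm38.p6) were found for 24 of the 28 mitosis genes. Of these, 18 (75%) held CCAAT and 18 held TTTGAA on either strand, against 42.4% and 14.1% of all 11811 genes with a promoter. Both were held by 15 (62.5%), against 7.02%. Of 23 replication genes with a promoter 11 (47.8%) held TTTGGCGC, TTTCCCGC, TTTGCCGC or TTTCGCGC, against 4.43%. Of 34 skeletal muscle genes with a promoter 17 (50%) held CAGCTG, an E-box bound by myogenic factors, against 18.8%. These matches are descriptions of the sequence. The 150 bases before the start are shown for genes with the largest falls that had a single entry, 4 of mitosis and 2 of replication. They run 5′ to 3′ on the gene's strand. CCAAT and TTTGAA (mitosis) or the E2F motifs (replication) of either orientation are in capitals.
Ube2c (chr2:164769779-164769928, plus strand): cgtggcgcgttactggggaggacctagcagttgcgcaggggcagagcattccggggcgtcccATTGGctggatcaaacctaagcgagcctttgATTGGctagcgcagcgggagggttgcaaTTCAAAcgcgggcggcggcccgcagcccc
Top2a (chr11:99024190-99024339, minus strand): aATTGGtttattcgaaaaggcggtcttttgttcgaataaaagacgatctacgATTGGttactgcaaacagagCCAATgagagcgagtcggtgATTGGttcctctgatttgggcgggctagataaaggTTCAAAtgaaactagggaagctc
Ccnb2 (chr9:70421555-70421704, minus strand): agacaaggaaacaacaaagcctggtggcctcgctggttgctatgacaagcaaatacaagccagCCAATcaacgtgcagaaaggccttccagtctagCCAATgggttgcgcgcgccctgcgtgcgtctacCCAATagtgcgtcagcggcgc
Bub1 (chr2:127831860-127832009, minus strand): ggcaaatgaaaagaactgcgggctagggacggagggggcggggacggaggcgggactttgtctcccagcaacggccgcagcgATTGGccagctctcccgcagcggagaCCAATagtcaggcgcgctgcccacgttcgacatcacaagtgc
Dtl (chr1:191575545-191575694, minus strand): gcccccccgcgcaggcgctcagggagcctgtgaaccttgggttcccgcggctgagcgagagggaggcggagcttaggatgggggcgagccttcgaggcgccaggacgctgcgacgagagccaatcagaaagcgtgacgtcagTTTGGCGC
Cdc6 (chr11:98908001-98908150, plus strand): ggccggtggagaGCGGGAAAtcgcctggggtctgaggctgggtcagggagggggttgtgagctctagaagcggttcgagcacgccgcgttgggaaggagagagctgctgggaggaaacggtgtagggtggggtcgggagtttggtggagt
Ube2c, a ubiquitin-conjugating enzyme of mitotic exit, and Top2a held several CCAAT boxes and a TTTGAA motif within these bases. Ccnb2, a mitotic cyclin, and Bub1, a spindle checkpoint kinase, held CCAAT boxes only. Dtl and Cdc6, which control the licensing of replication, each held an E2F motif, which in Dtl ends at the start itself.

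Growth genes of the fetus fell in 12 of 17 members, 5 by P0 and 6 in both steps. Igf2, a fetal growth factor, lay at 446, 573, 497 and 543 CPM at E16, at 112, 119.9, 109.9 and 71 CPM at P0 and at 52.1, 38.7 and 84.6 CPM at P16. Igf2bp1, which binds its mRNA, went from 30.8 ± 5.53 to 3.01 ± 0.767 and 0.0648 ± 0.112 CPM, and Hmga2, a chromatin protein of fetal cells, from 7.04 ± 1.8 to 0.717 ± 0.171 CPM and 0 counts, at least 20.4-fold lower. Both proteins mark early progenitors of many tissues, so their falls are not assigned to neural cells here. Of 30 genes of the Wnt pathway 18 fell, 7 by P0, and 10 of the 18 were over 2.5-fold higher in the cochlea at E16. Dkk2, a secreted Wnt inhibitor, went from 27.5 ± 4.55 to 4.2 ± 1.08 and 1.05 ± 0.563 CPM, and Wnt3, the single rise, from 5.93 ± 1.6 to 15.8 ± 2.76 CPM. The rise of Wnt3 was not called without E16 replicate 4 (log2 fold change 1.25) or P16 replicate 3 (1.28), with the replicate block (1.23) or with upper-quartile factors (1.31).

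The net change hid genes that moved in opposite directions before and after birth. In 100 genes a fall by P0 was followed by a rise after it, and 69 of these were not called over the full span, 17 were higher and 14 lower. Acan (ENSMUSG00000030607, chromosome 7, 79053483 to 79115099), whose product aggrecan is both the main proteoglycan of cartilage and a component of perineuronal nets around fast-firing neurons, lay at 782, 575, 623 and 384 CPM at E16, at 5.39, 5.7, 9.49 and 3.54 CPM at P0 and at 33.6, 44.1 and 39.6 CPM at P16. It was the neural list member with a P0 level under 10% of E16 (1.02%), and it rose again between P0 and P16 (log2 fold change 2.70, SE 0.3, adjusted p 1.45e-05). Hapln1, the link protein of the same matrices, lay at 285, 241, 123 and 246 CPM, then at 15, 18.9, 22 and 25 CPM and at 224, 222 and 112 CPM at P16, and was not called over the full span (log2 fold change -0.27, SE 0.299, adjusted p 0.455), although the fall by P0 (-3.46) and the rise after it (3.20) both were. In both genes the P0 libraries lay below all others. Of the other perineuronal net genes Hapln2, a link protein of the nodes of Ranvier, rose from 0.376 ± 0.202 to 73.4 ± 4.15 CPM, and Tnc, tenascin-C of the embryonic matrix, fell later from 522 ± 63.2 through 259 ± 29.9 to 19.1 ± 5.62 CPM. The share of each tissue in the E16 level of Acan and Hapln1 was not tested. At E16 the 21 cartilage genes summed to 7139 to 13519.8 CPM and at P0 to 114 to 283 CPM.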

How the data were processed

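RNA of the SOC was sequenced as stranded total RNA after removal of ribosomal RNA. The authors aligned reads to mm10 with STAR 2.5.3a and counted them with HTSeq on GENCODE genes; the annotation version and the use of strand are not given in the sources used here. The deposited values are raw counts per gene, of 22734 genes. All 11 SOC libraries were fitted together in edgeR 4.0.16 (R 4.3.3) with TMM factors, filterByExpr and the quasi-likelihood F test, with Benjamini-Hochberg adjustment over all genes tested. Of 17372 genes with counts in the SOC, 16832 passed the filter. The study used DESeq2, which was run (1.42.0) as an alternative. Groups and replicate numbers came from the sample titles. Deviations of libraries with the same number correlated in each of the 4 pairs of E16 and P0 (0.412 to 0.675), libraries that also share a joined table, but not in each pair with P16, so the replicate block is given beside the difference between the steps. That difference was the change after P0 minus that before it, called at an adjusted p under 0.01. Floors and lower bounds cover counting error only. The fits were tested on simulated data. Positions are from GENCODE M21 (99.6% of IDs found), and promoters from RefSeq, matched by symbol.

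The members and gene lists were chosen with earlier results of these data known. Named genes are the 4 largest fold changes by direction and step class with a mean of at least 20 CPM, list members with the largest rise, largest fall or highest level, and fixed subunit families. Genes named outside this rule, chosen after their values were seen, are Igf2, Igf2bp1, Ibsp, Scrg1, Ucma, Fbxo2, Top2a, the members not called of the muscle list, the later falls of the inner ear list and the genes whose promoters are printed. In the cochlea comparison plain CPM were used, and 0.5 CPM was added for ratios within a joined table. Small RNA libraries were not analysed here, and some genes of the lists and families are not reported here.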

Additional observations from a re-analysis of the deposited data

Results flagged for a closer look

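Within the E16 and P0 groups of 4 libraries, a library was picked out when its gap to the nearest other library exceeded Dixon's critical share of the range of its group. Of 242 groups examined for named genes, 17 (7.02%) met this, and chance alone gives about 1 in 20. E16 replicate 4 held Mobp at 17.2 CPM (others 0.0796 to 0.214), Mbp at 57.4 CPM (31.8 to 35.8) and Nefl at 1597 CPM (925 to 992). It held Mog at 1.12 CPM. In the others Mog was listed at 0 through a joined table, which allows up to 0.937 CPM without TMM factors. Among the 42 rises with a log2 fold change over 5 and at least 100 CPM at P16, E16 replicate 4 was the highest E16 library in 22, and in 21 it was also above what a 0 through a joined table allows. It stood below the others for Col1a2, at 1337 CPM against 1989 to 2053.

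E16 replicate 1 was apart for Actc1 at 146 CPM (72.1 to 74.7), Matn3 at 67.6 CPM (33.1 to 37.8), Cdc6 at 13.4 CPM (9.95 to 10.3) and Slc17a8 at 8.46 CPM (14.9 to 15.9). At P0, replicate 4 was apart for Slc12a2 at 126 CPM (84.3 to 89.3) and replicate 1 for Igsf9 at 8.24 CPM (12.6 to 13.2). P0 replicate 4 also held Neurod6, a gene of forebrain pyramidal neurons, at 155 CPM (17.3 to 23.2), which was not called at P16 vs E16.

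The remaining cases came from taking as 0 the values that a joined table hides. Klk6 (0.166 CPM) and Prg4 (0.622 CPM) in E16 replicate 4 and Mog (0.792 CPM), Prg4 (0.151 CPM) and Cyp2j12 (0.0377 CPM) in P0 replicate 4 lay within what such a 0 allows, so these libraries cannot be ranked against the others.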

How the results depend on the processing

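Of 1359 counts recomputed under 24 alternatives, 1300 stayed within 1.5 times. Leaving out a replicate gave 1949 to 2185 genes higher and 2194 to 2875 lower, and 1050 (without P0 replicate 2) to 1754 genes for a lower later step; without E16 replicate 4, 977 falls were called in neither step. The count of 1 forebrain fall ranged from 0 to 3 and that of 5 cerebellum falls from 2 (without P16 replicate 2) to 6. glmTreat gave 1057 genes higher (35 done by P0, 440 later, 27 in both steps) and 1316 lower (330, 351 and 25), which by construction asks for more. It left falls of 5 neural progenitor genes, 13 hindbrain transcription factors, 11 Wnt, 0 synaptic adhesion, 5 peripheral sensory neuron, 6 erythroid, 0 forebrain and 1 cerebellum genes, and rises of 7 glycine and GABA receptor, 5 inhibitory transmitter, 4 glutamate receptor, 16 potassium channel, 3 neurofilament, 2 activity-regulated, 5 oligodendrocyte precursor and 1 cholesterol genes.

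Genes with counts in every joined table, a set that leaves out genes absent at P16, held falls of 17 skeletal muscle, 10 cartilage, 9 bone, 10 inner ear, 8 epithelium and 0 forebrain genes. A fold minimum of 2 gave 298 rises in both steps, 9 falls of chromatin regulators, 5 of synaptic adhesion and 6 of splicing regulators, and 12 cholesterol rises. The difference between the steps moved to a lower later step in 2630 genes with GC-adjusted offsets and to 2697 higher and 2597 lower with the joined table as a term, which also gave 5 synaptic adhesion and 3 forebrain falls. Upper-quartile factors gave 5 synaptic adhesion falls. Forebrain falls were 2 with DESeq2, a 0.5 CPM filter or GC-adjusted offsets, and 0 without a filter or with hidden 0s set to 20 counts. The replicate numbers did not pair the libraries over the full span (correlation of deviations between E16 and P16 -0.15, -0.134 and 0.518). With the replicate block 2174 genes were higher and 2627 lower, the steps differed in 2768 and 2919 genes and 2 forebrain genes fell. Of 122 named genes that were compared, 18 lost their call and 7 gained one under some alternative. Grin2d, which was not called, changed sign with the joined table as a term (0.35). The median P0 level of the falls was 47.5% with medians over libraries in place of means. The causes of these shifts were not tested otherwise. Depth limits genes listed at 0 through a joined table to bounds of about 20 counts.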

Other observations

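Genes of protein synthesis, picked by their symbols after their values were seen, also fell. Of 85 ribosomal protein genes 41 were lower and 0 higher at P16, with a median log2 fold change of -1.34, of which -0.57 came by P0 and -0.78 after it. Their summed mean level went from 33412 CPM at E16 to 22806 CPM at P0 and 13355 CPM at P16. Of 9 genes of the mitochondrial genome 2 were higher and 0 lower, with a median log2 fold change of 1.41 and summed mean levels of 5123, 8379 and 19244 CPM.

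Besides Acan and Hapln1, 17 members of the lists were lower at P0 than at E16 and higher at P16 than at P0. Among them were Erbb3, the neuregulin receptor of myelinating glia (48.4, 9.57 and 116 CPM), Unc5b, a netrin receptor (45.5, 14.6 and 104 CPM), and Tmem119, a marker of microglia that bone-forming cells also express (30.2, 5.6 and 17.3 CPM), none of them called over the full span. Erbb3 (1.34) and Unc5b (1.40 and 1.34) were called without P16 replicate 1 or 2 and with the joined table as a term (1.67 and 1.38), and Unc5b with GC-adjusted offsets (1.43). The opposite course, a rise by P0 and a fall after it, was called in 49 genes, of which 44 were not called over the full span.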
